A study of Homo sapiens with 18 samples.

Results

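The genes described here code for the proteins of the cytosolic ribosome. They were chosen by symbol: protein-coding genes named RPL or RPS with a number and an optional A, X or Y suffix, RPLP0 to RPLP2 and RPSA, without Y-linked genes and without the RPS6 kinases. Of 62703 annotated genes, 77 met this rule. They comprise 43 large subunit genes, the 3 P stalk genes and 31 small subunit genes, spread over 21 chromosomes, of which chromosome 19 carries the most (12). The rule itself uses no measured value, but it was chosen with earlier results of these data known.

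All libraries came from MDA-MB-231, an established human triple-negative breast cancer cell line, and were made from polyadenylated RNA with a strand-preserving kit. In the knockdown arm, lentivirus delivered a control shRNA, shEZH2 (targeting EZH2) or shE2F1 (targeting E2F1) for 24 h, and puromycin (2 µg/ml) selected the cells for a further 72 h. In the drug arm, cells were kept for 72 h in DMSO or in 1 µM GSK126, an inhibitor of the EZH2 methyltransferase. The study asked which functions of EZH2, the catalytic subunit of the Polycomb complex that methylates histone H3, are shared with the transcription factor E2F1, and which of them need the methyltransferase activity. The 18 records held 10 distinct libraries, 2 in each of 5 groups, since 8 records repeated the values of another. The knockdowns are limited as models by a single hairpin for each target and a single cell line. The labels do not say that replicates came from separate cultures, so p-values measure only the spread between these libraries, which may be technical.

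Ribosomal proteins are made in near-equal amounts to assemble on ribosomal RNA in the nucleolus, and their mRNAs are among the most abundant in any growing cell. Most of these mRNAs begin with a C followed by an uninterrupted stretch of pyrimidines, the terminal oligopyrimidine (TOP) start, through which mTOR signalling and LARP1 control their translation and stability. Proliferating tumor cells depend on a high output of ribosomes, and several members also act outside the ribosome, for instance in the p53 response to faulty assembly.

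Libraries held 13198932 to 20055550 expected counts. EZH2 was at 155 and 183 CPM (counts per 1000000, scaled between libraries by edgeR's TMM method and given here as replicate 1 then replicate 2) under the control shRNA and at 53.1 and 44.8 under shEZH2 (log2 fold change -1.79, SE 0.12, edgeR adjusted p = 2.4e-06). E2F1 was at 145 and 139.9 CPM under the control shRNA, 26.2 and 22.7 under shE2F1, and 63.0 and 32.3 under shEZH2. It fell under shE2F1 (log2 fold change -2.54, edgeR adjusted p = 1.5e-05) and also under shEZH2 (-1.59, edgeR adjusted p = 0.00017). EZH2 was lower under shE2F1 too (-0.37, edgeR adjusted p = 0.023), so each hairpin lowered both mRNAs. The 8 markers of MDA-MB-231 cells examined were at or above 72.17 TPM (transcripts per 1000000) in every library. Their summed level was 8565 to 8812 TPM under the control shRNA, 5275 to 5277 under shEZH2 and 6697 to 6949 under shE2F1. Of 13 markers of other breast, immune and stromal cells, 5 or 6 were under 1 TPM in each group, while the others, keratins among them, reached 1470.2 TPM. The summed level of this list was 2929 to 3419 TPM under the control shRNA, 2421 to 2564 under shEZH2, 3195 to 3302.5 under shE2F1, 3456 to 3509 in DMSO and 3622 to 3713 in GSK126. The part of either marker list in the results was not tested.

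Ribosomal protein mRNAs took 5.07% and 5.63% of all counts in the control shRNA libraries. They took 3.31% and 3.07% under shEZH2 and 4.78% and 4.43% under shE2F1. In the drug arm the shares were 4.31% and 5.46% in DMSO, and 4.46% and 5.70% in GSK126. Both shEZH2 libraries lay below every other library, whereas DMSO and GSK126 overlapped. The mean share under shEZH2 was 59.7% of that under the control shRNA, and under shE2F1 it was 86.1%, while GSK126 stood at 104.0% of DMSO. Wilson 95% intervals of these shares reached at most 0.011 percentage points to either side and cover counting error only. An exact permutation test of 2 against 2 libraries cannot give a two-sided p below 0.333, so the shares were not tested. In bulk RNA, fewer cells with a high ribosomal protein content and less such RNA per cell cannot be told apart. In TPM, which estimates molecules rather than reads and so gives these short mRNAs more weight, the members summed to 15.5% and 16.6% of the control shRNA libraries and to 10.8% and 9.98% of the shEZH2 libraries.

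**Figure D1:**
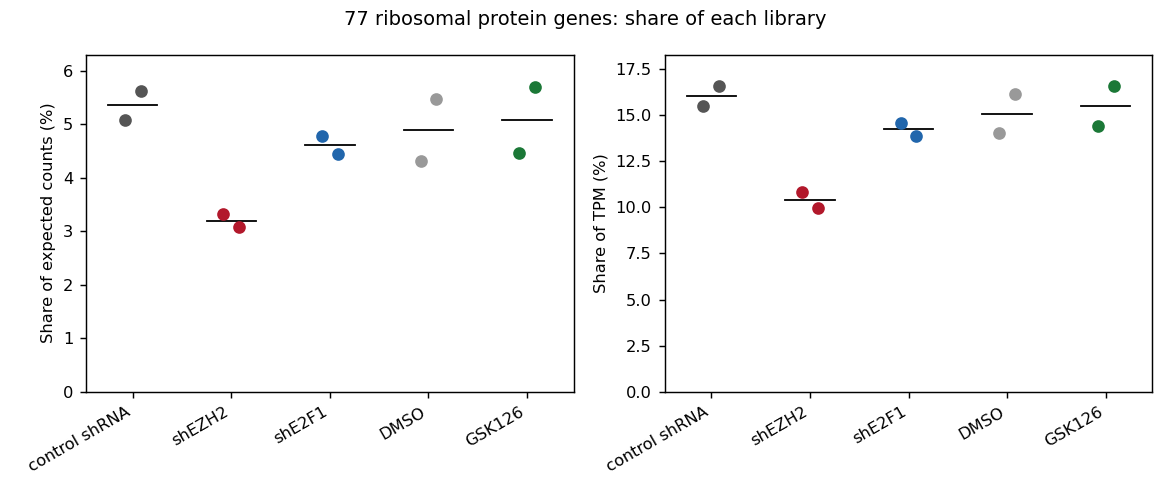
Percent of each library's expected counts that fell on the 77 ribosomal protein genes (left, vertical axis from 0) and percent of its TPM (right), with 1 point for each of the 10 libraries and a bar at the mean of each group. By counts, the shEZH2 libraries, at 3.31% and 3.07%, lie below all others, and in DMSO and GSK126 replicate 2 lies above replicate 1.

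Levels of different genes were compared in TPM, which corrects for transcript length. The mean over the 10 libraries ran from 410 TPM for RPL22 to 4940 TPM for RPS18, a 12.1-fold range, with a median of 1758 TPM over the members. Of the 77 genes, 73 had a mean above 1000 TPM, and 54 were among the 100 highest genes of the transcriptome. The upper end included RPS18 (4940 ± 594 TPM, SD, n = 10 libraries), RPS19, RPS10 (3243 TPM) and RPL35 (3055 TPM). RPS19 (3651 TPM), which is mutated in Diamond-Blackfan anemia, is needed to mature the small subunit RNA. The lower end was held by RPL22, RPS26 (500.0 TPM), RPS28 (847 TPM), RPS4X (917 TPM) and RPS15A (1084 TPM). In this order all 76 neighbouring pairs overlapped in their ranges over the libraries, so the order separates distant members only. It also differed between groups: under shEZH2, RPS26 (393 and 367 TPM) lay below RPL22 (452 and 522 TPM), and RPL28 stood at 2528 and 2636 TPM under the control shRNA but at 873 and 634 TPM under shEZH2.

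The TOP start is the sequence feature for which these mRNAs are known, and start windows are therefore shown for members on which the comparisons turn. RefSeq annotation of GRCh38.p14 gave a start for 62 of the 77 genes, and a single start was used for each. At the annotated start, 42 of these 62 (67.7%) had a C followed by at least 4 pyrimidines, against 4.07% of all 35116 annotated starts. Allowing 5 bases to either side, the shares were 80.6% and 21.1%. The E2F motifs TTTCGCGC and TTTGGCGC, searched on both strands from 250 bases before to 50 after the start, were found in 0 of the 62 windows and in 1.15% of all windows. At a share this low, 62 windows are too few to tell the members from all windows. Each window below runs from 10 bases before the start to 20 bases into the transcript, on the strand of the gene, with the pyrimidine run in capitals. RPL28 (chr19:55385922-55385951, plus strand), RPS27 (chr1:153990752-153990781, plus) and RPSA (chr3:39406710-39406739, plus) fell strongly under shEZH2. RPLP0 (chr12:120201092-120201121, minus) and RPS12 (chr6:132814559-132814588, plus) fell under both hairpins. RPL39 (chrX:119791611-119791640, minus) has the longest run of those shown and moved little, RPL22 (chr1:6199576-6199605, minus) did not pass the test under shEZH2, and RPS23 (chr5:82278335-82278364, minus) changed in isoform length. RPL13 (chr16:89560647-89560676, plus) and RPL15 (chr3:23916535-23916564, plus) have no such run at the start RefSeq gives and stand at opposite ends of the response to shEZH2.
RPL28: cctcgccttcCTCTTTCCgtctcaggtcgc
RPS27: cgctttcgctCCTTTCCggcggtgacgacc
RPSA: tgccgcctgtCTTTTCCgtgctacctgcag
RPLP0: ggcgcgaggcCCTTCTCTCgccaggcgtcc
RPS12: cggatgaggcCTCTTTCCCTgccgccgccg
RPL39: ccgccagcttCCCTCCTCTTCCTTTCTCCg
RPL22: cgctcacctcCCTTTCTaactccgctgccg
RPS23: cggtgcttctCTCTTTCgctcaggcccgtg
RPL13: tgctatcatcccagagtgcattgcggggcc
RPL15: tggggcctgctggaggagcttcacgcagtc

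Knockdown of EZH2 was compared with the control shRNA to ask how ribosomal protein mRNAs respond to loss of the protein. Of the 77 genes, 73 fell and 0 rose at an edgeR adjusted p under 0.05, where 28.6% of the 15373 genes tested fell and 27% rose. At an unadjusted p under 0.05 there were 75 members of either direction, where 60.6% of all genes were, and DESeq2 also called 73 lower and 0 higher. The median log2 fold change of the members was -0.76 (interquartile range -0.99 to -0.62), against -0.02 over all genes. All 31 small subunit genes fell (median -0.72), as did 39 of 43 large subunit genes (median -0.76) and the 3 stalk genes (median -0.97). Both shEZH2 libraries were below both control libraries for 75 members and above them for 1, RPL15, where 39.4% and 38.1% of all genes did so.

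By the study's own rule, an adjusted p under 0.01 and a change over 2-fold, 19 members fell and 0 rose, where 10.7% of all genes fell and 7.52% rose. These comprised 12 small subunit, 6 large subunit and 1 stalk gene. RPL28, a large subunit protein of animal ribosomes, had 897 and 968 CPM under the control shRNA and 298 and 233 under shEZH2. This was the largest fall (log2 fold change -1.81, SE 0.12, adjusted p = 2.2e-06). RPL13, another large subunit protein, was at 799 and 761 CPM in the controls and at 270.5 and 200.2 under shEZH2 (-1.73, SE 0.13, adjusted p = 3.6e-06). In both genes the shEZH2 libraries lay far below the controls, with no overlap. The other large subunit genes of this class were RPL6 (-1.32), RPL10 (-1.12), RPL36A (-1.04) and RPL12 (-1.02).

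Among small subunit genes, RPS27, a zinc-finger protein, went from 383 and 438 CPM to 163 and 149.8 (log2 fold change -1.39, SE 0.10, adjusted p = 3.4e-06). RPS20, at which stalled and collided ribosomes are marked with ubiquitin, went from 304 and 369 CPM to 147 and 118 (-1.35, SE 0.13, adjusted p = 1.3e-05). In both genes both shEZH2 libraries lay below the lower control library. RPS3, at the mRNA entry channel, changed by -1.31, RPSA, also known as the laminin receptor precursor, by -1.25, and RPS6, the substrate of the S6 kinases, by -1.17. RPS28 and RPS29 (both -1.27), RPS12 (-1.19), RPS2 (-1.16) and the X-linked RPS4X (-1.08) were also in the class. RPS19 (-0.97, adjusted p = 1.6e-05) and RPS27A, which is made as a fusion to ubiquitin (-0.70, adjusted p = 0.00036), fell by less than the 2-fold limit.

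The P stalk recruits elongation factors to the large subunit. RPLP0, its anchor, was at 2118 and 2359.6 CPM under the control shRNA and at 1104 and 944 under shEZH2 (log2 fold change -1.13, SE 0.11, adjusted p = 2e-05). RPLP1 went from 779 and 869 to 409 and 431 CPM (-0.97), and RPLP2 from 564 and 605 to 357 and 364 CPM (-0.70, adjusted p = 7.5e-05). The stalk genes thus fell with the remainder of the subunit, and none of their libraries overlapped between groups.

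A handful of large subunit genes moved little or not at all. RPL5 and RPL11 together bind MDM2 when ribosome assembly is disturbed. RPL5 was at 827 and 1014 CPM in the controls and at 776 and 767 under shEZH2 (log2 fold change -0.25, SE 0.11, adjusted p = 0.066), which did not pass the test. RPL11 went from 497 and 595 to 393 and 383 CPM (-0.49, SE 0.10, adjusted p = 0.002). The other members that did not pass were RPL22, RPL41 and RPL15. RPL22, an RNA-binding protein that is dispensable for translation, was at 237 and 292 CPM in the controls and at 238 and 259.8 under shEZH2 (-0.09, adjusted p = 0.54), so that its groups overlapped. RPL41, the smallest ribosomal protein, had a log2 fold change of -0.26 (adjusted p = 0.060), and RPL39, which lines the exit tunnel, of -0.34 (adjusted p = 0.012). RPL15, a core protein of the early large subunit, was at 737 and 770.2 CPM in the controls and at 805 and 782 under shEZH2 (0.07, adjusted p = 0.49). RPL3, near the peptidyl transferase centre, fell by 0.82 on the log2 scale. Leaving out each library in turn gave 72 to 75 members lower. The median was -0.89 without control replicate 1 and -0.64 without control replicate 2, and with an offset for GC content and length it was -0.66.

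**Figure D2:**
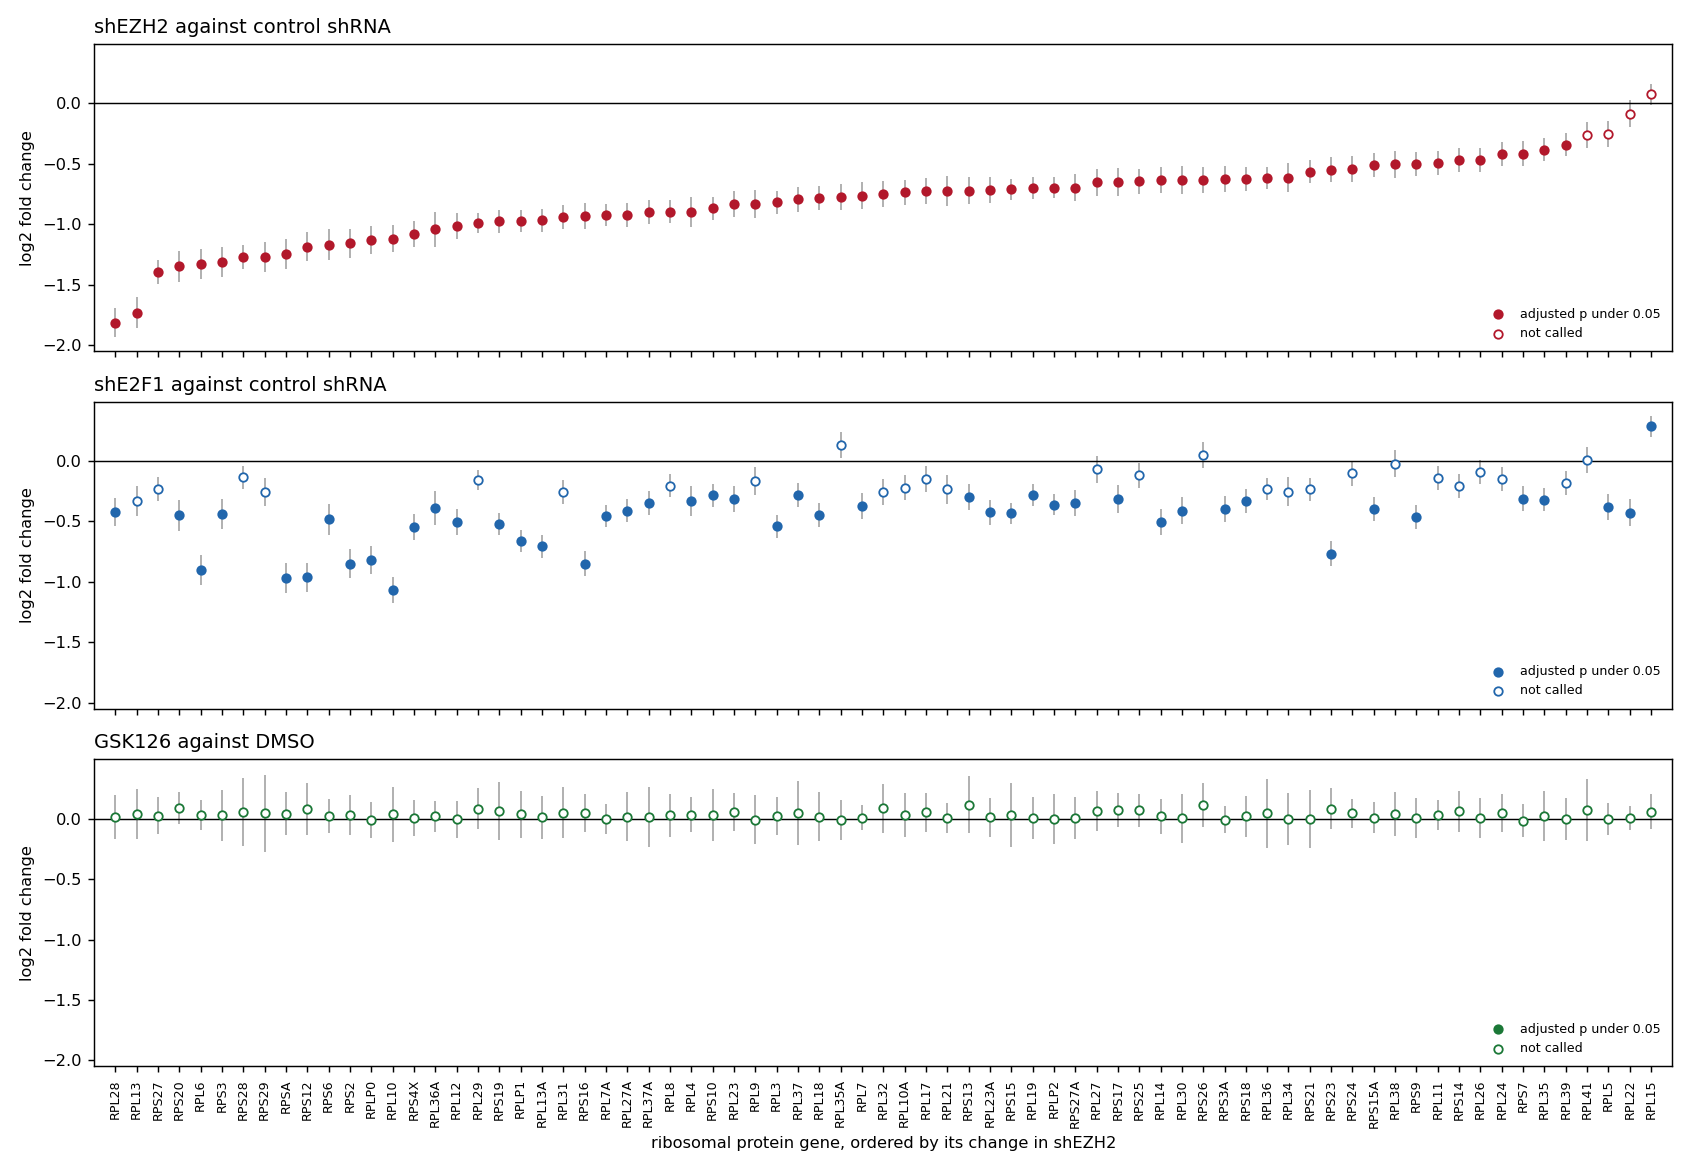
log2 fold changes of 73 of the 77 ribosomal protein genes (vertical axes, with genes along the horizontal axis in the order of their change under shEZH2) for shEZH2 and shE2F1 against the control shRNA and for GSK126 against DMSO. Points are edgeR estimates, filled at an adjusted p under 0.05, and bars are 1 SE to either side, with shEZH2 running from -1.81 for RPL28 to 0.07 for RPL15 and GSK126 staying between -0.02 and 0.12.

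Knockdown of E2F1 was compared with the same control libraries, so that this comparison shares their error with the previous one. Of the 77 genes, 49 fell at an adjusted p under 0.05, where 23.7% of all genes fell, and 1 rose, RPL15, where 21.1% of all genes rose. The median log2 fold change was -0.33, against -0.00 over all genes. By subunit, 23 of 31 small subunit genes fell (median -0.38), 23 of 43 large subunit genes fell (median -0.32) and the 3 stalk genes fell (median -0.66). By the study's rule 1 member fell, RPL10, and 0 rose, where 5.96% and 5.6% of all genes did. That single call was lost without control replicate 2 and without shE2F1 replicate 2 (0 each), and the count was 3 without either of the other libraries and 4 with an offset for GC content and length. DESeq2 gave 51 lower. Both shE2F1 libraries were below both control libraries for 63 members and above them for 1, where 37.2% and 37% of all genes did so. The number of falls rested on few libraries: it was 17 without shE2F1 replicate 2, 32 without shE2F1 replicate 1, 25 without control replicate 2 and 64 without control replicate 1, where 14.2%, 15.2%, 19.7% and 21.1% of all genes fell. The median log2 fold changes were then -0.30, -0.40, -0.21 and -0.45. Fitting all 10 libraries together gave 27 (21.0% of all genes) and a median of -0.33.

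RPL10, which sits close to the peptidyl transferase centre and joins the large subunit last, was at 1144 and 1316 CPM in the controls and at 623 and 553 under shE2F1 (log2 fold change -1.06, SE 0.11, adjusted p = 2.9e-05). RPSA was at 1211 and 1369 CPM in the controls and at 726 and 596 under shE2F1 (-0.96, SE 0.12, adjusted p = 0.00013). RPS12, a protein of the small subunit beak, went from 473 and 559.8 to 283 and 247 CPM (-0.96, SE 0.12, adjusted p = 9.7e-05). For these genes the shE2F1 libraries lay entirely below the controls. RPL6 (-0.90) and RPS2 (-0.85) completed the 5 largest falls. RPLP0 had 1366 and 1176 CPM under shE2F1 (-0.82, SE 0.11, adjusted p = 0.00022), RPLP1 changed by -0.66 and RPLP2 by -0.36.

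The genes that led the response to shEZH2 are given here for shE2F1 too, and their difference is tested directly further on. RPL28 was at 721 and 670.1 CPM (log2 fold change -0.42, adjusted p = 0.013), RPL13 at 632 and 610.2 CPM (-0.33, adjusted p = 0.053) and RPS27 at 365 and 334 CPM (-0.23, adjusted p = 0.079). The last 2 therefore did not pass the test. RPL5 (-0.38, adjusted p = 0.015), RPL22 (-0.43, adjusted p = 0.010), RPS6 (-0.48, adjusted p = 0.010), RPS27A (-0.35, adjusted p = 0.026), RPS19 (-0.52), RPS4X (-0.55) and RPL3 (-0.54) fell. RPL11 (-0.14), RPL39 (-0.18), RPL38 (-0.02), RPL41 (0.01), RPS26 (0.05) and RPL35A (0.13) did not pass. The sign of RPL41, RPS26 and RPL35A turned negative, to -0.17, -0.13 and -0.07, with an offset for GC content and length, and that of RPL38 turned positive, to 0.017, with upper quartile scaling. RPL15 had 953 and 889 CPM, above both control libraries, and a log2 fold change of 0.29 (SE 0.09, adjusted p = 0.020), which was no longer called when all 10 libraries were fitted together or with an offset for effective length.

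The knockdowns were then compared directly, without the control libraries. Under shEZH2, 61 members were lower and 1 was higher than under shE2F1, where 30.6% and 29.7% of all genes were. The median log2 difference was -0.42 (all genes -0.02). By the study's rule 5 members were lower, RPL13 (-1.40), RPL28 (-1.39), RPS27 (-1.16), RPS28 (-1.13) and RPS29 (-1.01), and 0 were higher, where 12.9% and 10.4% of all genes were. Both shEZH2 libraries were below both shE2F1 libraries for 69 members and above them for 3, where 42.3% and 40.2% of all genes were. Next in size came RPL35A (-0.91), which was at 451 and 419 CPM under shE2F1 and at 234 and 229 under shEZH2. The stalk genes differed by -0.31 (RPLP0, RPLP1) and -0.34 (RPLP2). The 1 higher member was RPL22, at 206 and 187 CPM under shE2F1 and 238 and 259.8 under shEZH2 (0.34, SE 0.11, adjusted p = 0.022). RPL10 did not differ beyond the spread, at 623 and 553 CPM under shE2F1 and 602 and 532 under shEZH2 (-0.05, SE 0.11, adjusted p = 0.70), and neither did RPL5 (0.13, adjusted p = 0.33), RPS9 (-0.04) or RPSA (-0.28, adjusted p = 0.070).

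This comparison also depended on the processing. With an offset for GC content and length, 34 members were lower and 5 higher, where 28.0% and 31.1% of all genes were. The median was then -0.20 (all genes 0.03), and RPL10 (0.16), RPS9 (0.31), RPL3 (0.08), RPL39 (0.02) and RPLP2 (0.04) changed sign. Without shE2F1 replicate 1 the median was -0.35, and a single fit of all 10 libraries gave 38 members lower, where 28.5% of all genes were. The 5 members lower by the study's rule numbered 5 with the offset as well.

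**Figure D3:**
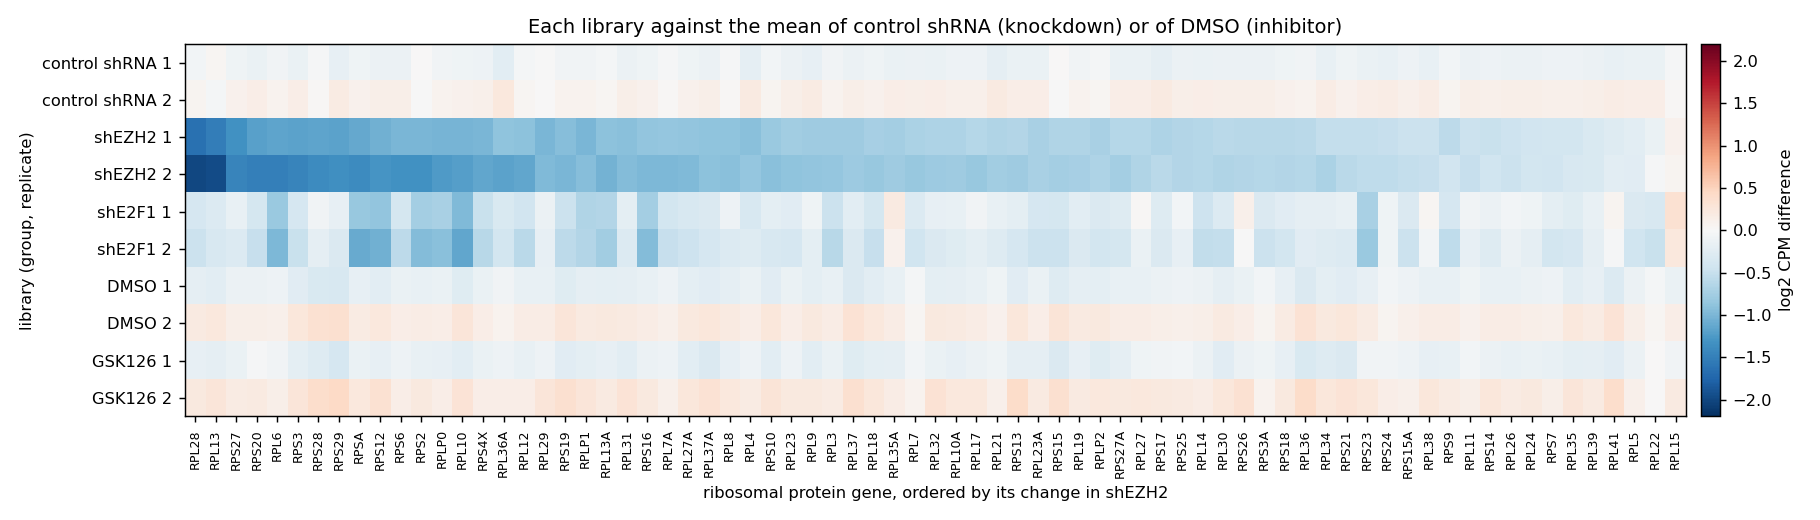
Difference in log2 CPM of 73 of the 77 genes (columns) in each of the 10 libraries (rows) from the mean of the reference libraries of the same arm, which are the control shRNA for knockdown libraries and DMSO for drug libraries. Blue is lower and red is higher, and both shEZH2 libraries are lower than the control mean in 76 of all 77 genes.

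Inhibition of the methyltransferase was compared with its solvent to separate loss of the protein from loss of its enzymatic activity. No member passed edgeR's test in either direction (0 of 77, with 0% of the 14632 genes tested called), 0 members had an unadjusted p under 0.05 against 3.94% of all genes, and DESeq2 called 0 members. The log2 fold changes of the members ran from -0.02 (RPS7) to 0.12 (RPS13), with a median of 0.03 (all genes -0.01) and a median SE of 0.17. RPL28 was at 685 and 906 CPM in DMSO and at 695 and 913 in GSK126. RPL13 was at 616 and 848 CPM in DMSO and at 629 and 873 in GSK126. RPL15 stood at 923 and 1129.9 CPM in DMSO and at 963 and 1171 in GSK126. In each of these genes the replicates of a group were further apart than the groups, and none of the 77 members had groups that did not overlap, where 13.1% of all genes were lower and 15.3% higher in both libraries.

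Replicate 2 lay above replicate 1 in all 77 members, both in DMSO (median log2 difference 0.34) and in GSK126 (0.38). With the replicate number as a block in the fit, 5 members rose, where 6.3% of all genes did, among them RPS13 (log2 fold change 0.11, adjusted p = 0.015), RPL32 (0.08), RPS23 (0.08) and RPL29 (0.08). Within replicate 1, GSK126 exceeded DMSO by a median of 0.01 (45 members higher, 32 lower), and within replicate 2 by 0.04 (69 higher, 8 lower). The corresponding difference between replicates was 0.24 in the control shRNA group, -0.07 under shEZH2 and -0.12 under shE2F1. The share of counts from mitochondrially encoded genes was 5.41% and 4.97% in DMSO and 5.41% and 4.91% in GSK126, and it was 4.43% and 4.77% under the control shRNA, 5.18% and 5.46% under shEZH2, and 4.76% and 4.24% under shE2F1. Its part in the results was not tested.

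The effect of shEZH2 was set against that of GSK126 in a fit of all 10 libraries that tests the difference itself. It was lower for 59 members and higher for 0, where 19.7% and 16.9% of all genes were (unadjusted p under 0.05 in 68 members and 46.0% of all genes, DESeq2 61 lower and 0 higher against 17.2% and 16.5% of all genes), with a median of -0.79 (all genes -0.03). By the study's rule 18 members were lower and 0 higher, where 8.67% and 5.13% of all genes were. This count depended on single libraries, and the median of the members ran from -1.04 without DMSO replicate 2 to -0.57 without GSK126 replicate 2. Among the largest differences were those of RPL28 (-1.81), RPL13 (-1.75), RPS20 (-1.42) and RPS27 (-1.40). The smallest were in RPL15 (0.03 by counts, -0.017 with upper quartile scaling and -0.41 with effective length as an offset), RPL22 (-0.08, and 0.015 with the GC and length offset), RPL5 (-0.24), RPL41 (-0.32) and RPL39 (-0.33). The number lower at an adjusted p under 0.05 also depended on single libraries. The median of the members was -0.67 without control replicate 2, -0.75 without shEZH2 replicate 2 and -0.60 without DMSO replicate 1. Knockdown and drug arms also differ in virus, selection and reference treatment, and these cannot be told apart from the difference between depletion and inhibition.

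Each library also comes with a transcript length for every gene, the mean over its isoforms weighted by their abundance, which is a readout of isoform use apart from the level. Under shEZH2 this length was above both controls for 30 members and below both for 8, where 19.7% and 18.4% of all genes were. In the mean, 6 members moved by more than 5%, and the share of all genes past this limit was not computed. The 2 largest shifts were in RPL15 and RPS23. RPL15 measured 749 and 744 bases under the control shRNA, 970.5 and 966 under shEZH2 and 778 and 785 under shE2F1, a rise of 29.7% under shEZH2. Its length was 851 and 793 bases in DMSO, and 852 and 803 in GSK126. RPS23, a protein of the decoding centre, measured 523 and 528 bases under the control shRNA, 631 and 662 under shEZH2 (23.0% longer) and 525 and 521 under shE2F1. For both genes the shEZH2 libraries stood apart from all the others.

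RPL27A (9.4%), RPL28 (8.9%) and RPL37 (8.4%) were longer under shEZH2, and RPS4X was shorter, its length changing by -7.0%. Under shE2F1, 25 members were longer and 16 shorter in both libraries, where 13.4% and 22.1% of all genes were. Under GSK126, 9 were longer and 3 shorter, where 12% and 13.1% of all genes were. Against shE2F1, the shEZH2 libraries were longer for 35 members and shorter for 15, where 24.4% and 16.1% of all genes were. For shE2F1 against its control and for GSK126 no member's mean moved by more than 5% (0 members each), again without a share over all genes. Because a longer transcript yields more fragments, counts understate a fall where length rises. RPL15 in TPM was at 1822 and 1789 under the control shRNA, 1611 and 1529 under shEZH2 and 2428 and 2315 under shE2F1. With effective length as an offset its log2 fold change under shEZH2 was -0.39 (adjusted p = 0.0057), in place of 0.07, and that of RPS23 was -0.96 in place of -0.55. The same offset turned the difference of RPS23 between the knockdowns from 0.22 to -0.17. With it, 75 of the 77 members were lower under shEZH2 and 0 higher.

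**Figure D4:**
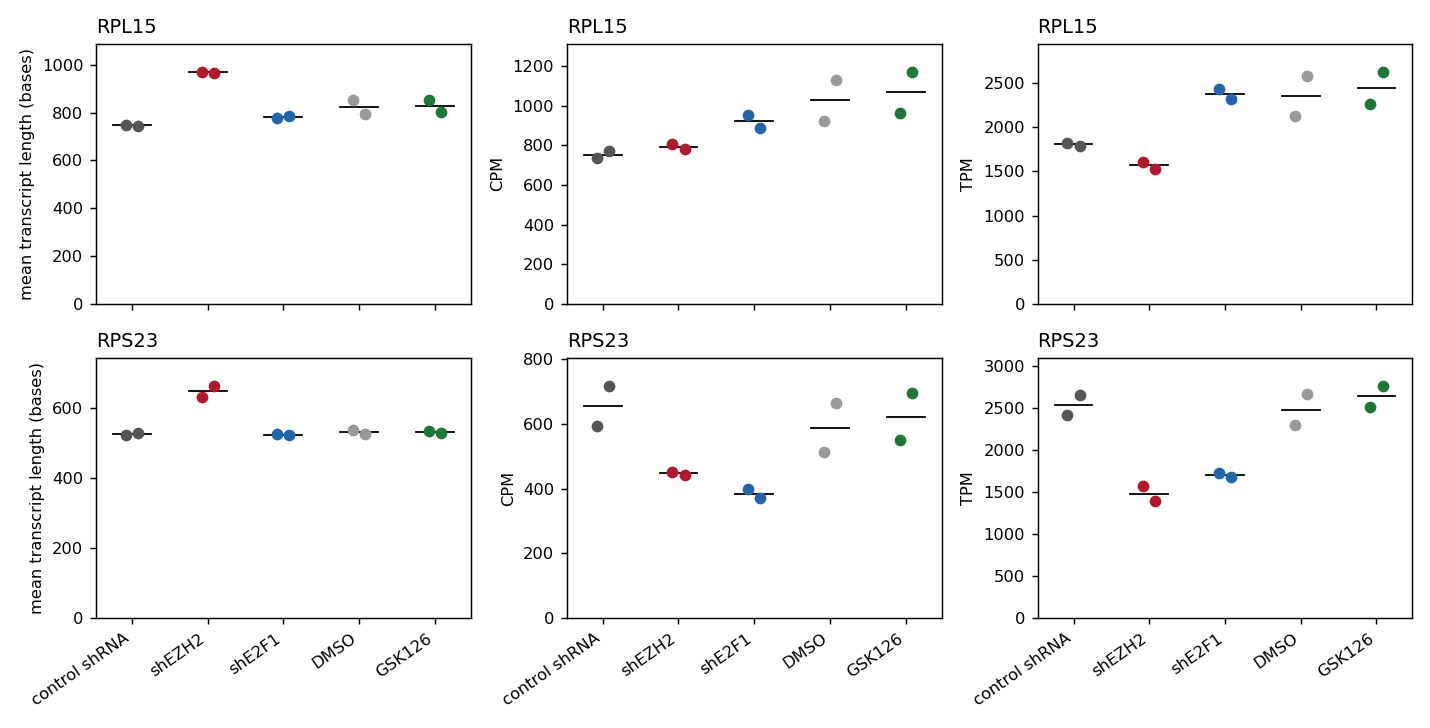
Abundance-weighted transcript length in bases (left), CPM (middle) and TPM (right) of RPL15 (top) and RPS23 (bottom), on vertical axes from 0, with 1 point for each of the 10 libraries and a bar at the mean of each group. RPL15 and RPS23 are longer in both shEZH2 libraries (970.5 and 966 bases, and 631 and 662 bases) than in any other.

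Ribosomal protein genes have many processed pseudogenes, and reads can be shared with them. The annotation lists 1587 pseudogenes named after a member. Over the coding sequence of each member, the share of 50-base stretches that also occur in another annotated gene ran from 0% in RPL38 to 100% in 9 members (RPL17, RPL21, RPL36A, RPL39, RPL41, RPS10, RPS26, RPS27 and RPS28), with a median of 51.9%. The counts assigned to these pseudogenes took 0.028% to 0.042% of each library. They amounted to 20.2% of the member's own counts for RPL23A, 13.7% for RPL22 and at most 3.25% for any other. The posterior SD of the read assignment reached 2.80% of the value for RPL36A and 1.06% for RPS26, and it stayed at or under 1% for all others. Values of RPL36A, RPS26, RPL23A and RPL22 are therefore the least certain. RPL28 shares 8.84% of its stretches and RPL13 shares 49.7%.

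Medians by read sharing lay close together. The median log2 fold change under shEZH2 was -0.76 for the 39 members with over 50% of stretches shared and -0.76 for the other 38, and under shE2F1 it was -0.35 and -0.33. Adding pseudogene counts to the members left 73 lower under shEZH2 and 50 under shE2F1. So did those by the TOP start. The 42 members with a run at the start had a median of -0.75 under shEZH2 and -0.35 under shE2F1, and the 20 without had -0.74 and -0.27. Allowing 5 bases to either side, 50 of the 62 members had a run, so some of the 20 have one near the annotated start. These medians therefore cannot show whether the TOP start matters for the change. Across the 77 members, which share libraries and depth, Spearman's rho of the shEZH2 change was -0.30 with coding GC content and -0.22 with coding length. For shE2F1, rho was -0.43 with coding length and -0.40 with the number of exons.

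Ribosomal protein genes that the symbol rule leaves out, paralogs and readthrough loci were less uniform. Of 10 tested, 6 fell and 1 rose under shEZH2 (median -0.40), where 28.6% and 27% of all genes did. Under shE2F1, 1 fell and 5 rose (median 0.18), where 23.7% and 21.1% of all genes did. The 10 include the readthrough loci RPL36A-HNRNPH2 (-1.06 under shEZH2, -0.64 under shE2F1) and RPL17-C18orf32 (0.09 and 0.90). The first is the 1 that fell under shE2F1, and the second is among the 5 that rose. Every coding stretch of RPL17 also occurs in RPL17-C18orf32, so reads of the 2 cannot be separated there. FAU, whose product is a small subunit protein fused to a ubiquitin-like one, had a log2 fold change of -0.23 under shEZH2 (adjusted p = 0.053) and of 0.05 under shE2F1. RPL39L, the paralog of RPL39 known from testis, was at 22.5 and 24.6 CPM in the controls, 9.26 and 6.86 under shEZH2 and 44.1 and 45.7 under shE2F1. It thus fell under one hairpin (-1.56) and rose under the other (0.93), and the direct difference was -2.49 (SE 0.15, adjusted p = 4.8e-07). RPL22L1, the paralog of RPL22, fell under shEZH2 (-1.57, adjusted p = 0.0006) and had -0.45 under shE2F1 (adjusted p = 0.16). RPS27L, a p53 target, and RPL36AL were at -0.33 and -0.04 under shEZH2 and at 0.35 and 0.33 under shE2F1.

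Other genes of the same pathways were read against the members and against all genes tested. Of the latter, 28.6% fell and 27% rose under shEZH2, and 23.7% fell and 21.1% rose under shE2F1. Of 22 further mRNAs known for a TOP start, 16 fell and 1 rose under shEZH2 (median -0.49), and 12 fell and 1 rose under shE2F1 (median -0.29). RACK1, a scaffold on the small subunit, was at 1075 and 1218 CPM in the controls and at 573 and 493 under shEZH2 (-1.11, adjusted p = 1.6e-05). PABPC1, the poly(A)-binding protein, was at 929.7 and 1203 CPM in the controls, 1163 and 1182 under shEZH2 and 467 and 501 under shE2F1. It fell under shE2F1 (-1.14, adjusted p = 3.4e-05), and shEZH2 exceeded shE2F1 by 1.28 on the log2 scale. Of 18 host RNAs of small nucleolar RNAs, 14 fell and 0 rose under shEZH2 (median -0.85), among them SNHG8 (-2.08) and SNHG32 (-1.60), and 9 fell and 0 rose under shE2F1 (median -0.42). Of 96 ribosome biogenesis factors, 34 fell and 19 rose under shEZH2 (median -0.13), and 22 fell and 10 rose under shE2F1 (median -0.14). The rRNA methyltransferase FBL was among those that fell under shEZH2 (-1.20). Of 78 mitochondrial ribosomal protein genes, 40 fell and 4 rose under shEZH2 (median -0.27), and 19 fell and 12 rose under shE2F1 (median -0.06). The 233 other genes with a mean TPM at least that of the lowest member had a median of -0.29 under shEZH2 (119 lower, 35 higher) and of -0.27 under shE2F1 (117 lower, 14 higher).

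**Figure D5:**
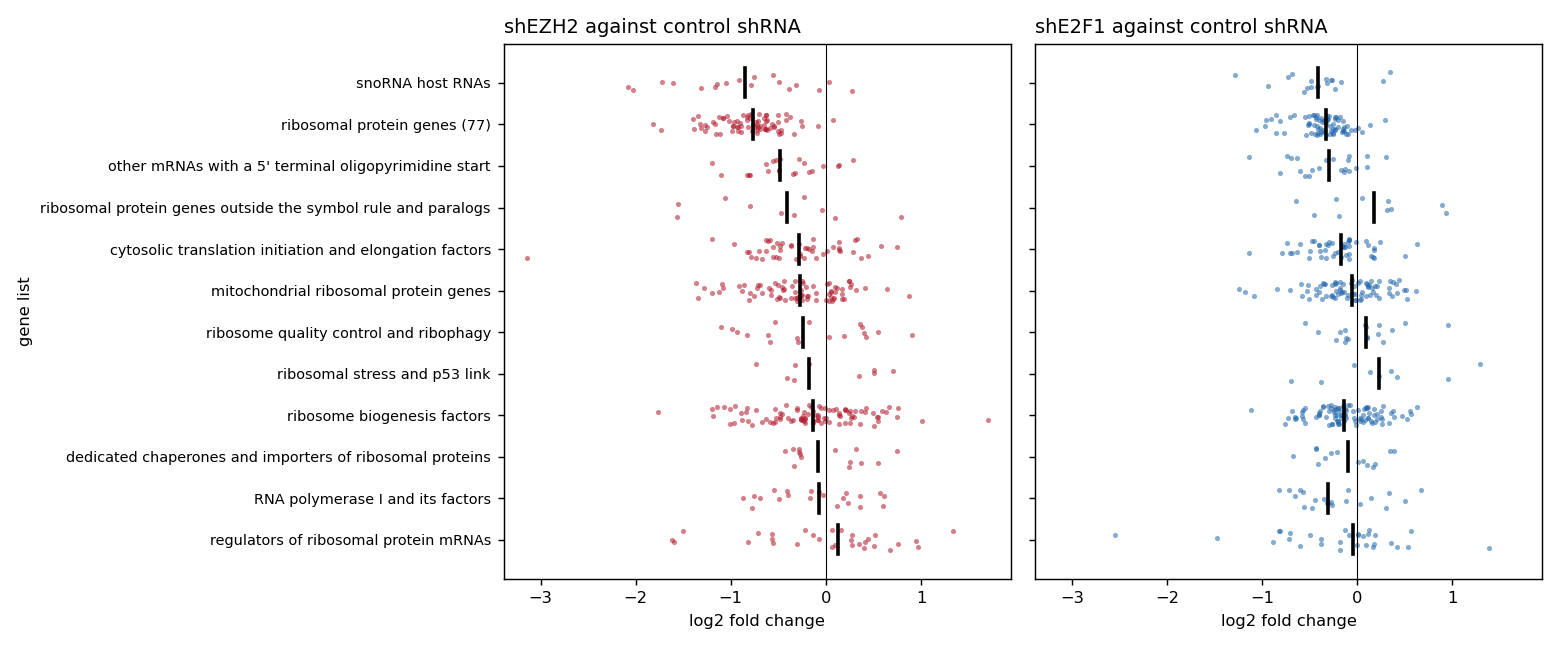
log2 fold changes against the control shRNA of the tested genes of each list (points, 1 for each gene) under shEZH2 and shE2F1, with the median of each list as a vertical bar. The 77 ribosomal protein genes have medians of -0.76 and -0.33, the snoRNA host RNAs of -0.85 and -0.42 and the ribosome biogenesis factors of -0.13 and -0.14.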

How the data were processed

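The authors deposited 1 RSEM gene table per record, with expected counts (reads per gene, shared out over ambiguous alignments and not normalized), TPM, transcript length and effective length. The submitters' processing notes name STAR 2.7.2b, RSEM 1.3.1 and GRCh38, and the study's methods give Ensembl release 108. The strand setting of the counting is not given in the sources used here, so reads of overlapping antisense genes may be included. Records with identical values were counted as 1 library. Of the 62703 gene identifiers, 99.9% were found in GENCODE release 44. Expected counts were rounded, filtered with filterByExpr, scaled by TMM and tested with edgeR 4.0.16 (R 4.3.3, quasi-likelihood F-test, Benjamini-Hochberg over all genes). The 6 knockdown libraries were fitted together, the 4 drug libraries apart, and all 10 for the difference of effects. A change was called at an adjusted p under 0.05. The tests of shEZH2 against the control shRNA and of GSK126 against DMSO were tried on simulated data, and the other comparisons were not. DESeq2 1.42.0, other scalings and filters, pseudogene counts added, offsets for GC content (spline, 5 degrees of freedom) and for length, a replicate block and leaving out each library were the alternatives. Values from deposited TPM were not tested.

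For each hairpin against the control shRNA, 16 members fixed by role and the 5 largest changes in each direction were named. All members past the study's rule were to be named too, and in the other comparisons only some of these genes are given. RPL28, RPL13 and RPL15 under GSK126 lie outside this rule and stand at the ends of the shEZH2 response. A few genes that this rule names are not reported here by name and are kept in the counts and medians. RPL28, RPL13 and RPS27 under shE2F1 and the members with the least certain read assignment were named after their values were seen. The members and gene lists were chosen with earlier results of these data known. Start windows came from RefSeq, whose tables matched 62 of 77 members. Read sharing used the coding sequence of the canonical transcript.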

Additional observations from a re-analysis of the deposited data

Results flagged for a closer look

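The effects of EZH2 knockdown and of EZH2 inhibition differed in the test of the difference itself. The number of ribosomal protein genes in which the shEZH2 effect lay below the GSK126 effect was 59 of 77 (edgeR adjusted p under 0.05, where 19.7% of all genes did so). The log2 difference was -1.81 for RPL28, -1.75 for RPL13, -1.42 for RPS20 and -1.40 for RPS27. In each of these 4 genes both shEZH2 libraries were below both control libraries, while DMSO and GSK126 overlapped. Groups held 2 libraries each, so single libraries were not tested for standing apart.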

How the results depend on the processing

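The fall under shEZH2 kept its direction under every alternative run, with 70 to 75 members lower at an adjusted p under 0.05, and the difference from GSK126 had 34 to 73. By the stricter rule of an adjusted p under 0.01 and over 2-fold, members lower numbered 19 (shEZH2), 1 (shE2F1, 0 higher), 5 (shEZH2 against shE2F1, 0 higher) and 18 (shEZH2 minus GSK126). Over the alternatives these counts ran from 15 to 27, 0 to 4, 4 to 7 and 9 to 40. A single fit of all 10 libraries gave 27 lower and 0 higher for shE2F1, where 21.0% and 19.1% of all genes were. It gave 38 lower for shEZH2 against shE2F1, where 28.5% of all genes were. With the offset for GC content and length, shEZH2 against shE2F1 had 34 lower and 5 higher, where 28.0% and 31.1% of all genes were, and a median of -0.20. RPL10 was then at 0.16, RPL3 at 0.082, RPL39 at 0.025, RPLP2 at 0.036 and RPS9 at 0.31. Under shE2F1 the same offset put RPL35A at -0.069, RPL41 at -0.17 and RPS26 at -0.13, and it put RPL22 at 0.015 for shEZH2 minus GSK126. With the effective length offset RPL15 was at -0.39 (shEZH2) and -0.41 (shEZH2 minus GSK126), RPL41 at -0.037 (shE2F1) and RPS23 at -0.17 (shEZH2 against shE2F1), and 0 members were higher in shE2F1 and in shEZH2 against shE2F1. Upper quartile scaling gave a median of -0.49 and 0 higher for shEZH2 against shE2F1. It put RPL38 at 0.017 (shE2F1), RPL15 at -0.017 (shEZH2 minus GSK126) and, under GSK126, RPL35A at 0.0097, RPL9 at 0.011, RPLP0 at 0.0056, RPS3A at 0.012 and RPS7 at 0.0038. RPL38 under shE2F1 was at 0.00078 with no filter and at 0.023 with a mean of at least 50 counts. A fit of only the 4 libraries compared gave 2 higher for shEZH2 against shE2F1. The causes were not tested.

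Replicates share numbers across groups, and the labels do not say that a number marks a shared culture or day. Deviations of same-numbered libraries correlated at 0.02 (control shRNA and shEZH2), 0.04 (control shRNA and shE2F1), 0.15 (shEZH2 and shE2F1) and 0.66 (DMSO and GSK126) over 13538 genes. With a replicate block 73 members were lower under shEZH2, 48 under shE2F1, 59 for shEZH2 against shE2F1 and 73 for shEZH2 minus GSK126, and 5 were higher under GSK126. The block with the GC and length offset gave 2 higher under GSK126. For shEZH2 against shE2F1 that pairing with the offset gave 32 lower, 5 higher and a median of -0.20, with RPL10 at 0.16, RPL3 at 0.082, RPL39 at 0.024, RPLP2 at 0.036 and RPS9 at 0.30. It put RPL35A at -0.067, RPL41 at -0.17 and RPS26 at -0.13 under shE2F1, and RPL22 at 0.017 for shEZH2 minus GSK126.

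Leaving out 1 library at a time assumes that a lone library varies like the other groups. Under shEZH2 the median ran from -0.89 to -0.64 and RPL22 from -0.24 to 0.079. Under shE2F1, 17 to 64 members were lower and 0 to 2 higher, and the median ran from -0.45 to -0.21. RPL11 ran from -0.27 to 0.0043, RPL35A from -0.017 to 0.30, RPL38 from -0.18 to 0.16, RPL41 from -0.14 to 0.18 and RPS26 from -0.083 to 0.19. For shEZH2 against shE2F1, 37 to 53 were lower and 0 to 1 higher, with medians of -0.46 to -0.35, RPL10 from -0.14 to 0.039 and RPS9 from -0.13 to 0.055. Under GSK126 the median ran from -0.18 to 0.22, with 0 calls each time. RPL32 ran from -0.16 to 0.33, RPL35A from -0.19 to 0.17, RPL9 from -0.24 to 0.23, RPLP0 from -0.18 to 0.15, RPS13 from -0.21 to 0.39, RPS20 from -0.032 to 0.22, RPS26 from -0.13 to 0.32, RPS3A from -0.090 to 0.075 and RPS7 from -0.16 to 0.12. For shEZH2 minus GSK126, 34 to 72 were lower, with medians of -1.04 to -0.57, RPL15 from -0.14 to 0.18, RPL22 from -0.23 to 0.078 and RPL41 from -0.67 to 0.020. With 2 libraries a group, the GSK126 comparison had a median SE of 0.17 for the members, and 0 of the 14632 genes tested were called. Changes of the size of that SE were therefore not detectable, and larger ones may have been missed as well.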

Other observations

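The remaining gene lists around the ribosome held genes that fell and genes that rose, and their counts stand beside all genes tested, of which 28.6% fell and 27% rose under shEZH2, and 23.7% fell and 21.1% rose under shE2F1. The lists overlap, so their counts are not independent. For instance, EEF1A1 and PABPC1 are among both the TOP mRNAs and the translation factors, and FBL is among both the TOP mRNAs and the biogenesis factors. Of 49 cytosolic translation initiation and elongation factors, 26 fell and 7 rose under shEZH2 (median -0.28), and 21 fell and 2 rose under shE2F1 (median -0.17). The largest fall under shEZH2 was in EEF1A2, an elongation factor isoform known from muscle and neurons, which was at 15.5 and 12.7 CPM under the control shRNA, 0.987 and 2.07 under shEZH2 and 22.8 and 20.9 under shE2F1 (log2 fold change -3.15 under shEZH2, edgeR adjusted p = 6.3e-06). Of 21 RNA polymerase I genes and their factors, 8 fell and 5 rose under shEZH2 (median -0.07), and 11 fell and 4 rose under shE2F1 (median -0.31). The ribosomal RNA gene activator UBTF rose under shEZH2 (0.57, adjusted p = 0.00042).

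Of 14 chaperones and importers of ribosomal proteins, 5 fell and 5 rose under shEZH2, and 5 fell and 2 rose under shE2F1. Of 30 tested regulators of ribosomal protein mRNAs, a list that holds E2F1 itself, 8 fell and 13 rose under shEZH2 (median 0.12), and 11 fell and 4 rose under shE2F1 (median -0.04). Of 18 genes of ribosome quality control, a list that holds RACK1, 9 fell and 6 rose under shEZH2, and 2 fell and 3 rose under shE2F1. Of 9 tested genes that link ribosomal stress to p53, 4 fell and 4 rose under shEZH2, and 2 fell and 4 rose under shE2F1. MDM2, the p53 ligase that RPL5 and RPL11 bind, rose under both hairpins (0.71 and 1.29, adjusted p = 0.00018 and 4.9e-06). The cell line carries mutant p53. In these lists 0 genes were called under GSK126, and 1 gene, of the quality control list, had an unadjusted p under 0.05.

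The mitochondrial ribosomal protein gene MRPL17 was at 97.7 and 103 CPM under the control shRNA, 44.6 and 33.8 under shEZH2 and 123 and 112 under shE2F1. It fell under shEZH2 (-1.36, adjusted p = 1.3e-05), and the direct difference between the hairpins was -1.59 (adjusted p = 2.7e-06).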
